A study of Mus musculus with 6 samples.

Results

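Bone and calcified cartilage are removed by osteoclasts, large cells that form by fusion of monocyte and macrophage precursors. Stromal cells, among them osteoblasts and hypertrophic chondrocytes, direct this with the cytokine RANKL (gene Tnfsf11), which binds the receptor RANK (Tnfrsf11a) on the precursors, and with macrophage colony-stimulating factor (Csf1), which keeps the precursors alive. The same stromal cells secrete osteoprotegerin (Tnfrsf11b), a soluble decoy receptor that traps RANKL. Downstream of RANK the transcription factor Nfatc1 switches on the resorption genes, which include Ctsk (the collagen-cleaving protease cathepsin K), Acp5 (tartrate-resistant acid phosphatase), Atp6v0d2 (a subunit of the vacuolar proton pump with a role in precursor fusion), Itgb3 (the integrin chain of the sealing attachment) and Calcr (the calcitonin receptor of mature osteoclasts). Ctsk and Nfatc1 are also made by mesenchymal cells.

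These 10 genes were taken by symbol from the 23358 entries of a gene count table, each matching 1 entry, and are described in Ezh2-deficient and wildtype chondrocyte cultures, Ezh2 being the histone methyltransferase of Polycomb repressive complex 2. The Ezh2-deficient group came from mice of the strain label C57BL/6 - mix with Ezh2_cKO in the library titles, which stands for a conditional knockout, and the wildtype group from mice of the same label. The Cre driver, the deleted part of Ezh2 and the share of recombined cells are not given in the sources used here. Immature chondrocytes of the femoral head, the condyles and the tibial plateau, taken at post-natal day 5, were cultured as micromasses, dense spots of cells, in medium with 2% serum, to which insulin, transferrin, selenium, 0.05 mg/mL ascorbic acid and 10 mM β-glycerol phosphate were added for differentiation. Total RNA was sequenced at days 3, 7 and 14, with 1 library for each genotype and day, 6 in all. No library has a replicate of its own genotype and day, so the 3 days stood in for replicates of genotype and the 2 genotypes for replicates of a day, and p-values measure that spread only. Nothing in the labels says whether the libraries came from separate cultures or animals.

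The libraries held from 51985214 to 79323302 counts, and 16280 genes passed a filter on low counts. Of the 10 genes, 9 passed it, each with at least 112 counts in every library, whereas Calcr did not. Ezh2 itself stood lower in Ezh2-deficient than in wildtype cells at every time, at 14.7, 23.0 and 17.6 CPM (counts scaled to a common library size) at days 3, 7 and 14, against 24.7, 40.2 and 27.9 CPM in wildtype libraries. The 8 chondrocyte markers were present in every library, with a summed level between 22750 and 130900 CPM that was lowest at day 14 in both genotypes. The sex makeup differed between the paired libraries, since Xist, a marker of female cells, was 842, 677 and 513 CPM in Ezh2-deficient and 1065, 1130 and 1223 CPM in wildtype libraries at days 3, 7 and 14, and its part in the results was not tested.

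Polycomb repressive complex 2 is found in mammals at promoters rich in CpG dinucleotides, so the promoters of the signalling genes are shown with every CpG in capitals. Promoter sequence was at hand for 6 of the 10 genes, from RefSeq on build GRCm38.p6 (the build also called mm10), and covers 250 bases before to 50 bases after the start of transcription, written in the direction of the gene. The 3 shown are the ligand (chr14:78307994-78308293, minus strand), its receptor (chr1:105780473-105780772, plus strand) and the growth factor (chr3:107760420-107760719, minus strand).

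Tnfsf11: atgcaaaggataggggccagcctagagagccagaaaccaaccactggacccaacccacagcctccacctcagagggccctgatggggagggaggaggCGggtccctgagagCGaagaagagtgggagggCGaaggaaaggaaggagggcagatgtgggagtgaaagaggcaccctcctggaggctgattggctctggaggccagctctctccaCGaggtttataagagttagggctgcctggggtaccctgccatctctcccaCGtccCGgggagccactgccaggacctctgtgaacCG

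Tnfrsf11a: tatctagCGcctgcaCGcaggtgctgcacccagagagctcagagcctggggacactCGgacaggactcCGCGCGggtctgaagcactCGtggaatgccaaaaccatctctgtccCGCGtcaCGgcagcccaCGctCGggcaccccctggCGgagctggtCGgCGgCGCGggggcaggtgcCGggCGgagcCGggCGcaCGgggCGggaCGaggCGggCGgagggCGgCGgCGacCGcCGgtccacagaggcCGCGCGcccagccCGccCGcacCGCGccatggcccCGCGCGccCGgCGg

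Csf1: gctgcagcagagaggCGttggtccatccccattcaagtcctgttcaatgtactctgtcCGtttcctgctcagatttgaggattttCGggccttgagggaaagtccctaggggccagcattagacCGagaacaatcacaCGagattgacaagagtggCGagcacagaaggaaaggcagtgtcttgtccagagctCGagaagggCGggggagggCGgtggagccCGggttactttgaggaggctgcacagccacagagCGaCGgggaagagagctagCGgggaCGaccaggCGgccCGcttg

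The Tnfrsf11a promoter held 43 CpG, more than most of the 32851 promoters in the table (percentile 97.6), which had a median of 7. Csf1 held 16 (percentile 67.8), Tnfsf11 held 7 (percentile 49.6) and Ctsk held 2 (percentile 18.7). The 3 listed starts of Acp5 held 4, 17 and 7, and the 2 of Calcr held 29 and 4. Of 4 motifs searched on both strands, the NFAT core GGAAA was in the promoters of Csf1 (3 matches), Tnfsf11, Ctsk and Acp5 and of 1 start of Calcr, and in 61.3% of all promoters. The AP-1 site TGANTCA (7.81% of promoters) and the PU.1 core GAGGAAGT (3.2%) were in none of the promoters of these 6 genes. The E-box CANGTG (44.9%) matched 2 times for Tnfrsf11a and was also found for Acp5 and Calcr. These matches describe the letters of the windows and do not show binding.

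Levels between genes can be compared only per length, and on the deposited RPKM scale (reads scaled by coding length and library total) Ctsk stood highest, with a mean of 105 and a range of 78.0 to 149 RPKM over the 6 libraries. Csf1 followed at a mean of 39.5 RPKM (28.5 to 54.1) and Tnfrsf11b at 23.4 RPKM (15.4 to 34.5). The range of Ctsk lay above that of Csf1, whereas those of Csf1 and Tnfrsf11b overlap. Atp6v0d2 (mean 5.35, range 0.785 to 14.0), Nfatc1 (4.63, 3.65 to 5.41) and Acp5 (4.57, 1.38 to 6.97 RPKM) had overlapping ranges. So did Itgb3 (2.41, 1.18 to 3.01), Tnfsf11 (2.39, 1.27 to 3.31) and Tnfrsf11a (1.46, 0.261 to 2.29 RPKM). These ranges pool days and genotypes. Within each of the 6 libraries, Csf1 stood above Tnfrsf11b, and both Itgb3 and Tnfsf11 stood above Tnfrsf11a. Calcr came last, at 0 RPKM in 4 libraries and at most 0.0128 RPKM.

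Ligand, receptor and most resorption genes were higher late in culture. Between day 3 and day 14, 7 of the 9 tested genes rose and 0 fell (edgeR adjusted p under 0.05 over all genes), against 23.2% of all tested genes that rose and 45.5% that changed in either direction. Their median log2 difference was 0.72, beside -0.02 for all tested genes (scaling by total counts alone moved the all-gene median to 0.19 for day 7 against day 3 and to -0.16 for day 14 against day 7). The 7 were Tnfrsf11a, Atp6v0d2, Acp5, Tnfsf11, Itgb3, Ctsk and Nfatc1, while Csf1 and Tnfrsf11b did not pass. By day 7 the first 5 of these had risen against day 3, with 19.5% of all tested genes rising and 36.1% changing. Between day 7 and day 14 no member passed in edgeR or limma-voom, with 2 at an unadjusted p under 0.05 (Atp6v0d2 and Nfatc1), where 5.66% of all tested genes passed and 23.4% had an unadjusted p under 0.05, a share close to that of the members. DESeq2 called 1, Atp6v0d2, where 12% of all tested genes passed.

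**Figure D1:**
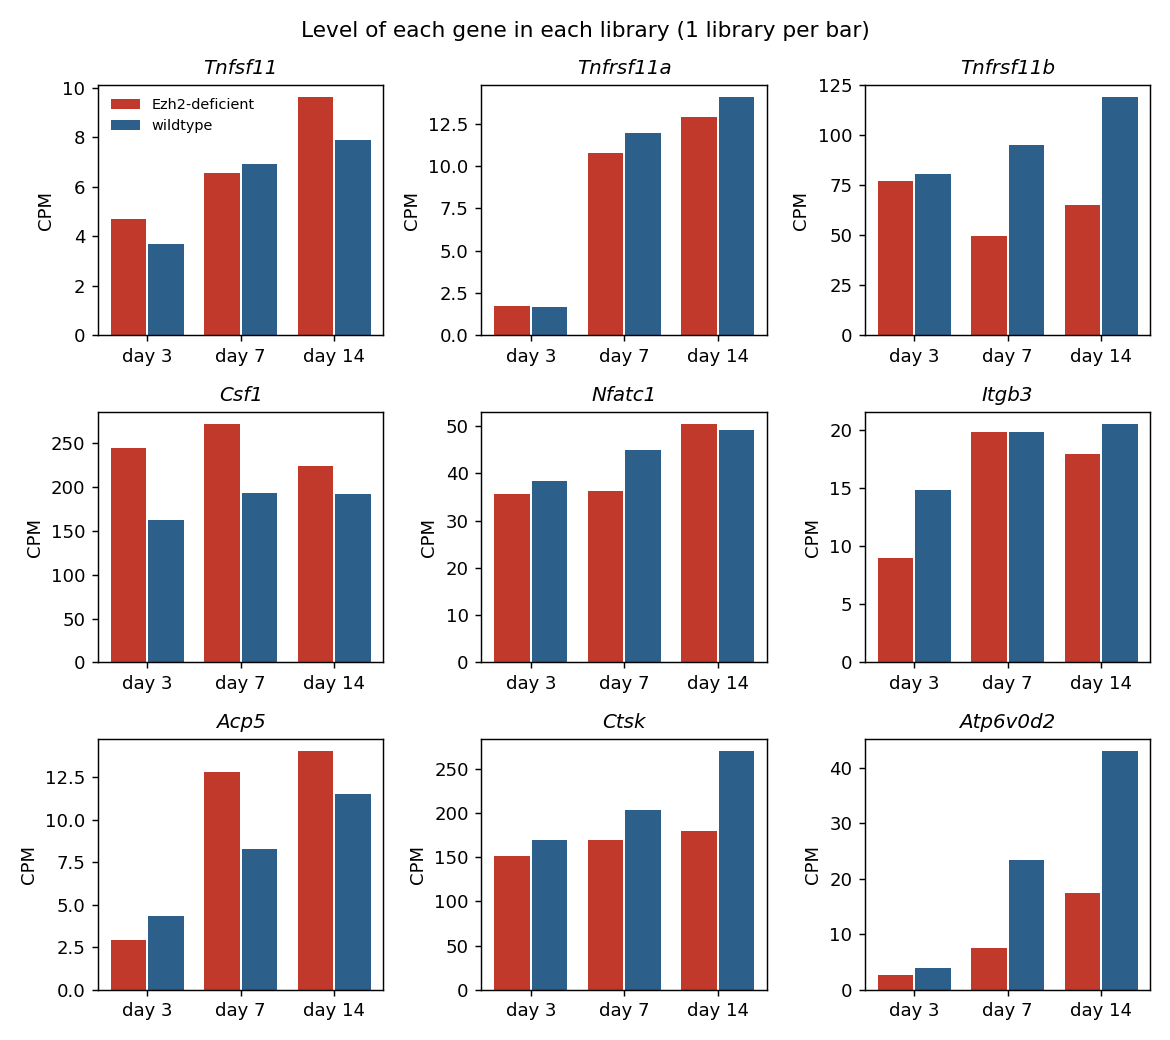
Level of the 9 tested genes in CPM (vertical axes, each starting at 0) by day, with 1 bar per library, red for Ezh2-deficient and blue for wildtype. Tnfrsf11a, Tnfsf11, Acp5 and Atp6v0d2 are higher at days 7 and 14 than at day 3 in both genotypes, and the blue bars of Tnfrsf11b and Atp6v0d2 stand well above the red ones at days 7 and 14.

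Tnfsf11, the ligand (chromosome 14, 78277446 to 78308043, mm10), was 4.68, 6.56 and 9.64 CPM at days 3, 7 and 14 in Ezh2-deficient libraries and 3.67, 6.92 and 7.90 CPM in wildtype libraries. The day 14 level was the highest of each genotype and the day 3 level the lowest. Day 14 against day 3 was 1.07 ± 0.18 on the log2 scale (SE, adjusted p = 0.00704), and day 7 against day 3 was 0.70 ± 0.18 (adjusted p = 0.0341). The day 7 rise did not pass without the wildtype day 3, Ezh2-deficient day 14 or either day 7 library (adjusted p up to 0.282). The fold of day 14 over day 3 was 2.06 in Ezh2-deficient cells (exact 95% counting interval 1.69 to 2.51) and 2.15 in wildtype cells (1.71 to 2.72).

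Between genotypes the ligand did not pass, at 0.18 ± 0.15 (log2, adjusted p = 0.641). The Ezh2-deficient library was higher at day 3 by a ratio of 1.28 (interval 1.01 to 1.62) and at day 14 by 1.22 (1.01 to 1.47). At day 7 the ratio was 0.947 (0.792 to 1.13), so the 3 days did not share a sign.

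Tnfrsf11a, the receptor RANK (chromosome 1, 105780723 to 105847981), was 1.72, 10.8 and 12.9 CPM at days 3, 7 and 14 in Ezh2-deficient libraries and 1.70, 11.97 and 14.1 CPM in wildtype libraries. Nearly all of its rise fell between day 3 and day 7, at 2.73 ± 0.15 (log2, adjusted p = 0.000449), and day 14 stood 2.98 ± 0.16 above day 3 (adjusted p = 0.000194). The fold of day 14 over day 3 was 7.48 in Ezh2-deficient cells (interval 5.72 to 9.92) and 8.30 in wildtype cells (6.25 to 11.2). The genotypes were close on each day, with a shared difference of -0.09 ± 0.12 (adjusted p = 0.772) and ratios of 1.01, 0.900 and 0.914 at days 3, 7 and 14, each with an interval that includes 1.

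Tnfrsf11b, the decoy receptor osteoprotegerin (chromosome 15, 54250619 to 54278484), was 77.0, 49.5 and 65.3 CPM at days 3, 7 and 14 in Ezh2-deficient libraries and 80.8, 94.99 and 119 CPM in wildtype libraries. The Ezh2-deficient values at every day lay below all 3 wildtype values. At day 3 the ratio of Ezh2-deficient over wildtype was 0.953 (interval 0.904 to 1.01), at day 7 it was 0.521 (0.493 to 0.551) and at day 14 it was 0.548 (0.516 to 0.581). The genotype difference across days was -0.63 ± 0.18 (log2) and did not pass in edgeR (adjusted p = 0.273), while DESeq2 gave an adjusted p = 0.0484. Without the day 3 pair it was -0.91 ± 0.09 and passed in edgeR (adjusted p = 0.00771). In that fit 5.46% of all tested genes passed, against 0.0123% in the full fit. Over 12 alternatives the adjusted p ran from 0.00771 to 0.971, and 2 of them passed.

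The 2 genotypes also differed in the course of osteoprotegerin with time. Day 14 over day 3 was 0.847 in Ezh2-deficient cells (interval 0.798 to 0.899) and 1.48 in wildtype cells (1.40 to 1.55), so it was lower at day 14 in Ezh2-deficient cells and higher at day 14 in wildtype cells. The genotype difference changed by -0.37 ± 0.11 (log2) per doubling of day, which did not pass (edgeR adjusted p = 0.262). Across genotypes the day 14 difference from day 3 was 0.14 ± 0.22 (adjusted p = 0.635), and it rose without the Ezh2-deficient day 3 library (0.58 ± 0.12, adjusted p = 0.00707). The sign turned to -0.26 without the wildtype day 3 library and to -0.01 without the wildtype day 14 library.

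The balance of ligand to decoy is often read as their ratio. Per coding length, Tnfsf11 over Tnfrsf11b was 0.0766, 0.167 and 0.186 at days 3, 7 and 14 in Ezh2-deficient libraries, against 0.0573, 0.0919 and 0.0836 in wildtype libraries. The ratio was higher in the Ezh2-deficient library on each of the 3 days, and the counting intervals of the paired libraries did not overlap at day 7 (0.146 to 0.190 against 0.0804 to 0.105) or at day 14 (0.163 to 0.212 against 0.0723 to 0.0962). Osteoprotegerin exceeded the ligand in every library, by 13.1-, 5.99- and 5.37-fold in Ezh2-deficient and by 17.5-, 10.9- and 11.96-fold in wildtype cells. The ratio differed by 0.81 ± 0.37 on the log2 scale (SD over 3 days), a mean of 1.76-fold, with the daily differences at 0.42, 0.86 and 1.16. Exchanging the genotypes within days, an exact two-sided permutation test gave p = 0.25, which is the smallest that 8 arrangements allow, so this design could not pass.

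**Figure D2:**
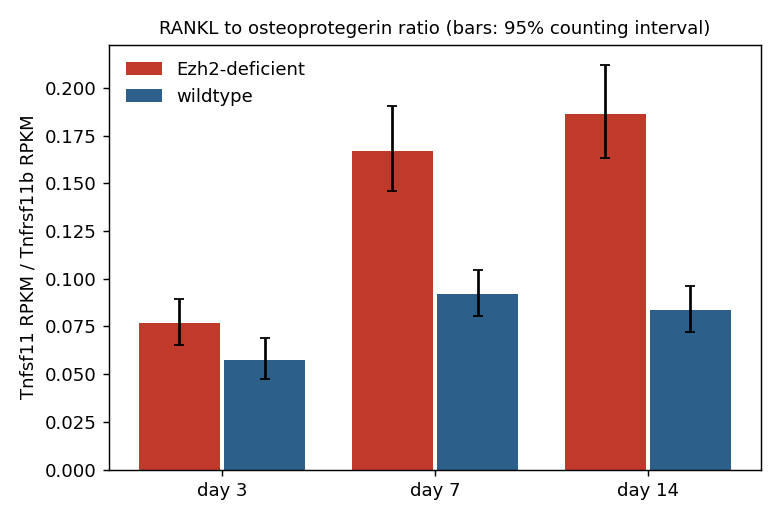
Ratio of Tnfsf11 to Tnfrsf11b in RPKM (vertical axis from 0) by day, with 1 bar per library, red for Ezh2-deficient and blue for wildtype, and exact 95% counting intervals as error bars. The red bars reach 0.0766, 0.167 and 0.186 and the blue bars 0.0573, 0.0919 and 0.0836.

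Csf1, the survival factor of macrophages and osteoclast precursors (chromosome 3, 107741048 to 107760469), was 244, 272 and 224 CPM at days 3, 7 and 14 in Ezh2-deficient libraries and 163, 194 and 192 CPM in wildtype libraries. The lowest Ezh2-deficient value stood above the highest wildtype value. The shared difference was 0.43 ± 0.10 (log2), which did not pass in edgeR (adjusted p = 0.195) or limma-voom (0.139) but passed in DESeq2 (adjusted p = 0.0133). The ratio was 1.5 at day 3 (interval 1.45 to 1.55), 1.41 at day 7 (1.36 to 1.45) and 1.17 at day 14 (1.12 to 1.21). Csf1 did not pass between days, at 0.06 ± 0.12 (log2) for day 14 against day 3 (adjusted p = 0.708), and the sign of that difference turned to -0.06 without the wildtype day 3 library and to -0.07 without the wildtype day 14 library.

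Nfatc1, the transcription factor (chromosome 18, 80606205 to 80713071), was 35.7, 36.2 and 50.4 CPM at days 3, 7 and 14 in Ezh2-deficient libraries and 38.4, 44.9 and 49.2 CPM in wildtype libraries. It rose by day 14 against day 3 at 0.43 ± 0.11 (log2, adjusted p = 0.0251), which did not pass with either day 3 library or the Ezh2-deficient day 14 library left out (adjusted p up to 0.133). The genotypes were -0.13 ± 0.09 apart (adjusted p = 0.588). An annotated antisense gene overlaps Nfatc1, and with the strandedness of the libraries not given in the sources used here the reads of both cannot be told apart.

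Itgb3, the integrin chain (chromosome 11, 104608000 to 104670471), was 8.99, 19.8 and 17.9 CPM at days 3, 7 and 14 in Ezh2-deficient libraries and 14.9, 19.9 and 20.5 CPM in wildtype libraries. Both genotypes were lowest at day 3. The ratio of Ezh2-deficient over wildtype was 0.605 at day 3 (interval 0.525 to 0.696), 0.997 at day 7 (0.899 to 1.11) and 0.874 at day 14 (0.771 to 0.989). It rose by day 14 at 0.72 ± 0.19 (log2, adjusted p = 0.0302), and the genotype difference of -0.30 ± 0.16 did not pass (adjusted p = 0.469). The day 14 rise did not pass without the Ezh2-deficient day 3, Ezh2-deficient day 14 or wildtype day 14 library (adjusted p up to 0.136), and that of day 7 (0.77 ± 0.19, adjusted p = 0.0300) did not without the Ezh2-deficient day 3 library or either day 7 library (up to 0.208).

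Atp6v0d2, the proton pump subunit (chromosome 4, 19876838 to 19922566), was 2.58, 7.50 and 17.4 CPM at days 3, 7 and 14 in Ezh2-deficient libraries and 3.88, 23.3 and 43.0 CPM in wildtype libraries. It had the largest day 14 difference among the 9 genes, 3.10 ± 0.27 (log2 against day 3, adjusted p = 0.000767), with a fold of 6.73 in Ezh2-deficient cells (interval 5.39 to 8.47) and 11.1 in wildtype cells (9.22 to 13.4). Ezh2-deficient values were below wildtype at each time, at ratios of 0.665 (0.505 to 0.874), 0.322 (0.281 to 0.368) and 0.404 (0.362 to 0.450). The shared difference was -1.21 ± 0.21 (log2), with an adjusted p = 0.125 in edgeR, 0.0575 in limma-voom and 2.65e-05 in DESeq2. Over 12 alternatives the adjusted p ran from 2.65e-05 to 0.762 and 2 passed. These were DESeq2 and the edgeR fit without the day 3 pair (-1.47 ± 0.13, adjusted p = 0.00633), where 5.46% of all tested genes passed.

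Ctsk, the collagenolytic protease (chromosome 3, 95499286 to 95509362), was 152, 170 and 180 CPM at days 3, 7 and 14 in Ezh2-deficient libraries and 170, 204 and 270 CPM in wildtype libraries. It rose by day 14 at 0.46 ± 0.13 (log2, adjusted p = 0.0321), by a fold of 1.18 in Ezh2-deficient cells (interval 1.14 to 1.23) and 1.59 in wildtype cells (1.53 to 1.65). Ezh2-deficient values were below wildtype at each time, at ratios of 0.893, 0.835 and 0.666, with a shared difference of -0.34 ± 0.10 that did not pass (adjusted p = 0.286). The day 14 rise did not pass without the wildtype day 3 library, either day 7 library or the wildtype day 14 library (adjusted p up to 0.129).

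Acp5, the acid phosphatase (chromosome 9, 22126727 to 22135746), was 2.93, 12.8 and 14.1 CPM at days 3, 7 and 14 in Ezh2-deficient libraries and 4.34, 8.31 and 11.5 CPM in wildtype libraries. It rose by 1.52 ± 0.30 at day 7 (log2, adjusted p = 0.0147) and 1.80 ± 0.30 at day 14 (adjusted p = 0.0064), both against day 3, and the day 7 rise did not pass without the Ezh2-deficient day 7 library (adjusted p = 0.102). The Ezh2-deficient library was lower at day 3 (ratio 0.676, interval 0.522 to 0.874) and higher at day 7 (1.54, 1.33 to 1.79) and day 14 (1.22, 1.05 to 1.42). The shared genotype difference was 0.14 ± 0.24 (adjusted p = 0.843) and had the opposite sign without the day 7 pair, at -0.13. A gene on the other strand, 6530413G14Rik, overlaps Acp5, so reads of both could have been mixed.

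Across the 3 days, then, no member passed between genotypes in edgeR or limma-voom. In edgeR 0.0123% of all tested genes passed, in limma-voom 0.246% and in DESeq2 3.84%, where 3 of the 9 members passed (Atp6v0d2 and Tnfrsf11b lower, Csf1 higher). At an unadjusted p under 0.05 in edgeR 4 of the 9 stood apart, Atp6v0d2, Tnfrsf11b and Ctsk lower and Csf1 higher, against 13.2% of all tested genes. The genotype difference did not pass for a change with day in any member, with 0.614% of all tested genes passing. At an unadjusted p under 0.05 there were 2 members, Tnfrsf11b and Ctsk (-0.19 ± 0.07 per doubling of day), beside 13.3% of all tested genes. Within a single day 1 library of each genotype was compared without a test, and a gene was called where the ratio was at least 2-fold, the higher library had at least 1 CPM and the counting interval left out 1. At day 3 none of the 9 members was called, where 2.37% of genes were. At days 7 and 14 Atp6v0d2 alone was called, lower in the Ezh2-deficient library, where 4.21% and 5.88% of genes were called.

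**Figure D3:**
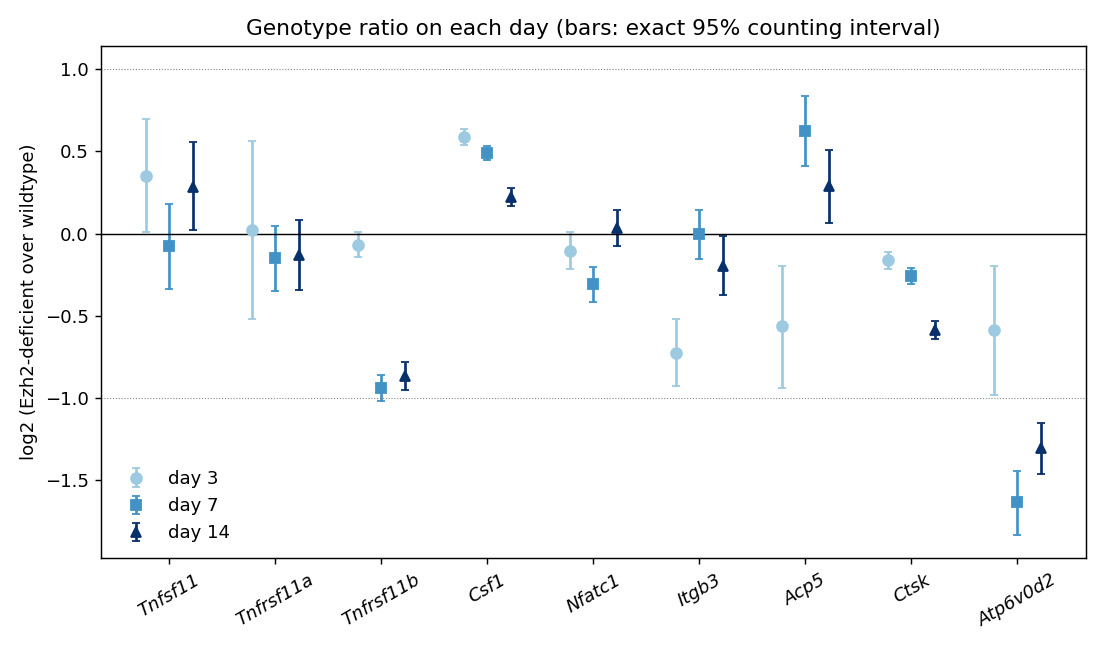
Log2 ratio of the Ezh2-deficient over the wildtype library (vertical axis) for each tested gene on days 3, 7 and 14 (circle, square, triangle), with exact 95% counting intervals, and dotted lines at a ratio of 2-fold in either direction. Csf1 lies above 0 and Ctsk and Atp6v0d2 below 0 on the 3 days, Tnfrsf11b lies below 0 with day 3 near it, and Acp5 changes sign.

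Of 14 macrophage and monocyte markers measured, all 14 rose between day 3 and day 14 in edgeR, where 23.2% of all tested genes rose. None was at 0 in any library. Their summed level was 113.9, 1514 and 3011 CPM at days 3, 7 and 14 in Ezh2-deficient libraries and 150.6, 1466 and 2236 CPM in wildtype libraries. Csf1r, the receptor of the Csf1 product, was 13.3, 146 and 261 CPM in Ezh2-deficient libraries and 14.8, 153 and 177 CPM in wildtype libraries. The macrophage markers and the rising members were all higher at day 14 than at day 3. By day 7 all 14 markers had risen in edgeR, whereas Ctsk and Nfatc1 had not passed. The part of macrophages in the rises of the members was not tested. In bulk RNA a change in the number of cells of a type and a change in RNA per cell cannot be told apart. Between genotypes 0 of the 14 passed in edgeR or limma-voom, while 2 were higher in DESeq2, where 2.34% of all tested genes were. Without the day 3 pair 3 were higher in edgeR, where 2.42% of all tested genes were. Their sum was higher in the Ezh2-deficient library at day 14, where Lyz2 had the largest difference (1800 against 1150 CPM in wildtype). Cd68 (118 against 141 CPM) and Mrc1 (173 against 186 CPM) were lower there, and the other markers were level or higher.

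Calcr and 3 genes of the lists, chosen after their values were seen, had the low levels that follow, beside a counting floor of 3 fragments (0.0763 to 0.114 CPM, counting error only). Ctsk, Atp6v0d2 and Acp5 stood well above that floor in every library. Calcr had 2 counts, equal to 1 fragment, in the Ezh2-deficient day 7 library and 4 counts in the wildtype day 7 library, and 0 in the other 4. Dcstamp, a membrane protein needed for precursor fusion, was 0.0807, 0.102 and 0 CPM at days 3, 7 and 14 in Ezh2-deficient libraries and 0.182, 0.227 and 0.266 CPM in wildtype libraries. Ocstamp, a related fusion protein, was at most 0.182 CPM in Ezh2-deficient and 0.19 CPM in wildtype libraries. Oscar, a costimulatory receptor of osteoclasts, was 0.269, 0.127 and 0.146 CPM in Ezh2-deficient libraries and 0.364, 0.426 and 0.342 CPM in wildtype libraries. Oscar and Dcstamp lay below wildtype in Ezh2-deficient cells at each time, with shared differences of -1.10 ± 0.46 (adjusted p = 0.394) and -1.83 ± 0.82 (adjusted p = 0.423) that did not pass.

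**Figure D4:**
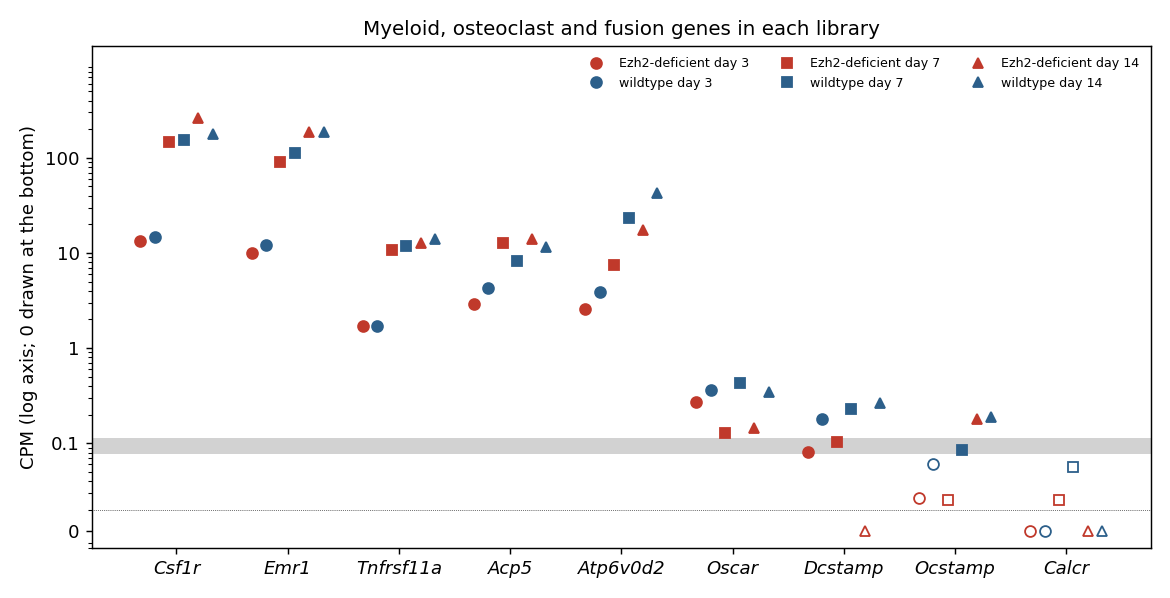
Level in CPM (log axis, with 0 drawn at the bottom below a dotted line) of myeloid genes (Csf1r, Emr1), members of the set and fusion or maturation genes in each library, red for Ezh2-deficient and blue for wildtype. The grey band is the floor of 3 fragments, and open symbols lie under the floor of their own library. Csf1r and Emr1 reach over 100 CPM, while Oscar, Dcstamp, Ocstamp and Calcr stay under 0.5 CPM.

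Other cell types that could carry these genes were checked by their markers. The 7 markers of T and B lymphocytes, which can also make RANKL, summed to 0.673, 1.58 and 2.15 CPM at days 3, 7 and 14 in Ezh2-deficient libraries and 0.88, 2.72 and 4.98 CPM in wildtype libraries, with between 1 and 4 of them at 0 in each library. The 5 megakaryocyte and platelet markers, cells that share Itgb3, summed to between 6.57 and 13.1 CPM in Ezh2-deficient and between 6.61 and 12.8 CPM in wildtype libraries. The 9 osteoblast and osteocyte markers summed to 1326, 8249 and 95700.0 CPM in Ezh2-deficient libraries and 802, 6758 and 44330.0 CPM in wildtype libraries, and all 9 rose by day 14. Between genotypes 0 of the 9 passed in edgeR, where all 9 were higher in Ezh2-deficient cells at an unadjusted p under 0.05 (median 1.14, log2). So were 1111 of all 16280 tested genes. Higher calls numbered 5 in DESeq2 (2.34% of all tested genes), 3 in limma-voom (0.19%) and 6 in edgeR without the day 3 pair (2.42%). The 4 hypertrophic markers summed to 1043, 1611 and 4261 CPM in Ezh2-deficient libraries and 852.9, 1187 and 8667 CPM in wildtype libraries. They did not move together. At day 14 Col10a1 (1820 against 6130 CPM in wildtype), Mmp13 and Ihh were lower in the Ezh2-deficient library, whereas Panx3 was higher (1010 against 668 CPM). At day 7 Mmp13 was higher than at day 3 in both genotypes, Ihh and Panx3 were lower, and Col10a1 was higher in wildtype only. The 8 chondrocyte markers summed to 52100.0 and 22750 CPM at days 7 and 14 in Ezh2-deficient libraries and 74470.0 and 36680.0 CPM in wildtype libraries. Between genotypes 0 of the 8 passed in edgeR and 1 was lower in DESeq2, where 1.5% of all tested genes were. Without the day 3 pair 4 were lower in edgeR, where 3.04% of all tested genes were. The part of these cell types in the genotype differences of Tnfrsf11b, Csf1 and Atp6v0d2 was not tested. The osteoblast markers and Tnfsf11 were thus both higher at day 14 than at day 3. Between day 7 and day 14 all 9 osteoblast markers rose in edgeR (median 3.63, log2), as did 3.38% of all tested genes, whereas Tnfsf11 did not pass. Its fold of day 14 over day 7 was 1.47 in Ezh2-deficient cells (counting interval 1.23 to 1.75) and 1.14 in wildtype cells (0.944 to 1.38). The part of osteoblasts in the ligand's rise was not tested.

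Of 22 regulators of osteoclast formation 21 were tested. Between day 3 and day 14, 14 rose and 0 fell, beside 23.2% and 22.4% of all tested genes. The median was 1.06 (log2) beside -0.02 for all tested genes. Csf1r was 3.95 ± 0.21 higher (adjusted p = 0.000194), Irf8, a myeloid transcription factor that restrains osteoclast formation, 3.83 ± 0.22, and Trem2, Tyrobp, Fcer1g and Syk, the receptor, adaptors and kinase of the costimulatory pathway, between 3.16 and 3.80 higher. By day 7, 13 had risen, beside 19.5% of all tested genes. Between day 7 and day 14, 0 passed in edgeR, while 5 were higher in DESeq2, where 6.58% of all tested genes were. In edgeR 7 were higher with either day 3 library left out, where 7.54% (without Ezh2-deficient) and 7.46% (without wildtype) of all tested genes were. Between genotypes 0 passed in edgeR, DESeq2 or limma-voom, with a median of -0.01, and the smallest p values were those of Tyrobp (-0.34 ± 0.12, adjusted p = 0.335), Oscar and Il34, a second ligand of Csf1r (0.32 ± 0.16, adjusted p = 0.449).

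Of 16 genes of fusion, acid secretion and resorption, 5 rose and 1 fell between day 3 and day 14. Of all tested genes 23.2% rose and 22.4% fell. The median was 0.11, and -0.02 without the wildtype day 3 library. Tcirg1, another subunit of the osteoclast proton pump, rose by 2.04 ± 0.14 (log2, adjusted p = 0.000339), and Itgav, the integrin chain that pairs with Itgb3, by 1.28 ± 0.09. The others that rose were Ostm1 (0.95), a partner of the lysosomal chloride transporter, the pump subunit Atp6v0a1 (0.86) and the vesicle adaptor Plekhm1 (0.73). Mmp9, a gelatinase abundant in osteoclasts, fell by day 14, at -2.84 ± 0.25 (adjusted p = 0.00077), and was 19.3, 20.1 and 2.55 CPM at days 3, 7 and 14 in Ezh2-deficient libraries and 25.2, 15.8 and 3.69 CPM in wildtype libraries. Mmp9 thus went the other way from the pump genes Tcirg1 and Atp6v0a1, whereas the list's other pump genes, Atp6v1c1, Atp6v1b2 and Atp6ap1, did not pass. Between genotypes 0 of the 16 passed in edgeR or limma-voom and 1 was lower in DESeq2, where 1.5% of all tested genes were. The median was -0.16 in edgeR. The smallest edgeR p values were those of Cd9, a tetraspanin (-0.34 ± 0.08, adjusted p = 0.227), Itgav (-0.18 ± 0.07, adjusted p = 0.386) and Dcstamp.

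Of 20 genes that induce or modulate RANKL or its action, 10 rose and 3 fell between day 3 and day 14, beside the 23.2% and 22.4% of all tested genes. The median was 1.33, and 0.73 without the wildtype day 14 library and 0.79 among those with at least 1 CPM in 2 libraries. The largest rises were those of Ptger4, a prostaglandin E2 receptor (4.23 ± 0.34 on the log2 scale), Wnt16, a Wnt ligand (3.61 ± 0.31), the cytokines Tnf (2.76 ± 0.40) and Lif (2.71 ± 0.26), Ptgs2, the inducible cyclooxygenase (2.26 ± 0.21), and Pth1r, the parathyroid hormone receptor (2.23 ± 0.21). Between day 7 and day 14, 5 rose and 1 fell (0 and 0 without the Ezh2-deficient day 7 library, 2 and 0 without the wildtype day 7 library, 1 and 0 without the Ezh2-deficient day 14 library), and the rises were those of Pth1r (2.47 ± 0.21), Ptgs2 (1.96 ± 0.20), Lif (1.70 ± 0.24), Vdr, the vitamin D receptor (1.65 ± 0.24), and Wnt5a (0.76 ± 0.08). Pth1r was 140, 112 and 811 CPM at days 3, 7 and 14 in Ezh2-deficient libraries and 119, 107 and 447 CPM in wildtype libraries, so its rise came after day 7, whereas the receptor Tnfrsf11a had most of its rise before day 7.

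Between genotypes the median of the 20 was 0.31, and 0 passed in edgeR or limma-voom. In DESeq2 4 were higher, where 2.34% of all tested genes were. Without the day 3 pair 4 were higher in edgeR, where 2.42% of all tested genes were. Wnt5a, a Wnt ligand that raises RANK in osteoclast precursors, had the smallest edgeR p (0.53 ± 0.07 on the log2 scale, adjusted p = 0.0886). Wnt16, which raises osteoprotegerin in osteoblasts, was 0.377, 2.80 and 5.29 CPM at days 3, 7 and 14 in Ezh2-deficient libraries and 0.152, 0.908 and 1.52 CPM in wildtype libraries (1.63 ± 0.23, adjusted p = 0.11). Ptger4 was 1.26, 7.47 and 23.3 CPM in Ezh2-deficient libraries and 0.334, 4.40 and 6.95 CPM in wildtype libraries (1.41 ± 0.26, adjusted p = 0.142). Both were higher in the Ezh2-deficient library on the 3 days.

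The course over the 6 libraries was compared with that of 12249 other genes, by the root mean square distance of log2 CPM centred on each gene's mean. Closest to Tnfsf11 were Pcsk5 (distance 0.0591, r = 0.994), Heca, Rgl2, Acy3 and Galnt10 (distance up to 0.0792). Closest to Tnfrsf11b were Sulf1 (0.113, r = 0.971), Etnk2, Pgbd1, Gbe1 and Pgk1 (up to 0.178), to Ctsk they were Sept3 (0.0634, r = 0.977), Mospd2, Ctnnbip1, Fgfr1op and Hk1 (up to 0.0854), and to Acp5 Vash1 (0.151, r = 0.985), Marcksl1, Cpxm1, Unc93b1 and Gdpd1 (up to 0.174). The points share 6 libraries and their scaling, so this is a description only.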

How the data were processed

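Per the file headers, the authors deposited 1 table with a raw read count and an RPKM value per gene and library. CASAVA 1.9, TopHat 12.0.6, HTSeq and build mm10 are named in the submitters' processing notes. Their roles, strandedness, annotation and filters are not given in the sources used here. The deposited RPKM values were proportional to the count over coding length within each library. Every count was even, and a fragment was taken as 2 counts.

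Genes were kept by filterByExpr (minimum count 10, day as group). TMM-scaled CPM and edgeR 4.0.16 quasi-likelihood tests (R 4.3.3, two-sided, Benjamini-Hochberg over all genes, threshold 0.05) were computed from the deposited counts, with day as a factor plus genotype, which leaves 2 residual degrees of freedom. A change of the genotype difference with day was fitted per centred log2 day, with 1 residual degree of freedom. Standard errors are the log2 difference over the square root of F. Alternatives were DESeq2 1.42.0, limma-voom 3.58.1, other scalings and filters, counts halved, a robust fit and left-out libraries. Ratios of single libraries carry exact binomial intervals, which cover counting error only, with a floor of 3 fragments. Only the edgeR genotype test was tried on simulated counts. These held no effect of day, so they do not show how the test performs where days stand in for replicates.

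The members, the lists and the rule for naming genes were chosen with earlier results of these data known. All 10 members are named. In a list the largest changes that pass are named, up to 6, or the 3 with the smallest p.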

Additional observations from a re-analysis of the deposited data

Results flagged for a closer look

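Tnfrsf11b was picked out because its level moved in opposite directions with time in the genotypes, by more than counting error. Day 14 over day 3 was 0.847 in the Ezh2-deficient pair of libraries and 1.475 in the wildtype pair. Csf1 was picked out for the same reason, at 0.917 in the Ezh2-deficient pair and 1.181 in the wildtype pair. With 1 library per genotype and day these opposite directions were not tested as such. The change of the genotype difference per doubling of day was -0.37 ± 0.11 (log2) for Tnfrsf11b and -0.16 ± 0.07 for Csf1, and neither passed (edgeR adjusted p = 0.262 and 0.423).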

How the results depend on the processing

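Among single genes, 552 values under the alternatives kept their direction and side of the threshold, 12 newly passed, 18 no longer passed and 12 changed sign. Between genotypes DESeq2 called 3 members and 5 genes of the 3 osteoclast and RANKL lists, against 0 and 0 in edgeR. Cell type markers were not counted. Leaving out a day pair gave 0 to 2 members, 0 to 4 list genes and 0 to 5.46% of all tested genes. For day 7 against day 3, leaving out the Ezh2-deficient or the wildtype day 14 library gave 4 and 5 members (5 in the full fit). List genes were 23 and 25 (26), where 34.1% and 33.6% of all tested genes passed (36.1%). Leaving out a day 3 or day 7 library left 1 library on that day, and fewer members passed without either day 7 library. For day 14 against day 7, DESeq2 called 1 member and 15 list genes, where 12% of all tested genes passed. In edgeR these were 0 and 7, where 5.66% passed. Leaving out the Ezh2-deficient or the wildtype day 3 library gave 2 members and 19 list genes each, where 15.2% and 15.1% of all tested genes passed. At 1.5-fold within a day, 1, 3 and 3 members were called at days 3, 7 and 14. Of all genes assessed, 1063 of 13150, 1636 of 13473 and 1929 of 13477 were called on those days. Signs changed only with a library or pair left out, where log2 differences ran as follows. Between genotypes Acp5 ran from -0.13 (without the day 7 pair) to 0.456. For day 14 against day 3, Tnfrsf11b ran from -0.26 (and -0.0106) without the wildtype day 3 (day 14) library to 0.578, and Csf1 from -0.0745 (and -0.0579) without the wildtype day 14 (day 3) library to 0.218. For day 7 against day 3, Tnfrsf11b ran from -0.622 to 0.215 (and 0.0418) without the Ezh2-deficient day 3 (day 7) library, and Nfatc1 from -0.00485 without the wildtype day 7 library to 0.28. For day 14 against day 7, Csf1 ran from -0.294 to 0.0141 without the Ezh2-deficient day 14 library, Acp5 from -0.0475 without the wildtype day 7 library to 0.69, and Itgb3 from -0.26 to 0.183 (and 0.0336) without the Ezh2-deficient day 7 (wildtype day 14) library. The cause was not tested. Left-out libraries were not run for the change with day, which would have no residual degrees of freedom. Depth limits Calcr, Dcstamp, Ocstamp and Oscar.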
